A study of Drosophila melanogaster with 6 samples.

Results

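The genes described here are 10 of the 17494 genes counted in Drosophila melanogaster pupal flight muscle: dy, mey, dyl, m, nyo, neo, tyn, pio, zye and qsm. All encode zona pellucida (ZP) domain proteins, and they were chosen by gene symbol to follow, library by library, RNA of the epidermis and its apical matrix in dissected muscle. The genes dy and mey were selected on these counts, because they stood out in WT replicate 3, so their levels in that library are given as a description and without a test. The other 8 members were chosen for their kinship with dy and mey, with results of these data already known.

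ZP domain proteins carry a C-terminal module with which they assemble into extracellular filaments and sheets. In the insect epidermis they form part of the apical extracellular matrix, where neighbouring family members occupy separate zones of the cell surface and help to shape denticles, bristles, wing hairs and tracheal tubes before and while cuticle is laid down. In the embryonic epidermis the transcription factor Ovo (Shavenbaby) switches on several of them together. Flight muscle is not a tissue for which they are known.

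The libraries were made from polyA RNA of hand-dissected indirect flight muscle at 64 h after puparium formation (APF), labelled as dorsolongitudinal flight muscle, and each pooled the muscles of several pupae. In 3 libraries a UAS-M1BP RNAi transgene (per the methods of the study, the weaker of the lines it used) was expressed, and 3 control libraries carried the genotype labelled WT. Pupae of both groups carried the driver Mef2-GAL4, which is active in muscle and, per the study, in some neurons, while Mef2 is also expressed in fat body. Its activity in epidermis was not examined. M1BP is a zinc finger transcription factor of broadly expressed genes, and the comparison asks which transcripts of the muscle depend on it. Nothing in the labels says whether the samples come from separate crosses, so the p-values measure the spread between these samples.

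The libraries held 42215400 to 54890681 counts, and a floor of 3 counts corresponded to 0.0542 to 0.103 CPM (the usual counts-per-million unit, scaled by the TMM method). That floor covers counting error only. M1BP itself averaged 3.07 ± 0.470 CPM in M1BP RNAi and 8.00 ± 0.946 CPM in WT (SD, n = 3 each), and its log2 fold change was -1.38 ± 0.15 (SE; adjusted p = 9.54e-04, edgeR's quasi-likelihood test, used for every fold change here). The muscle genes Act88F, fln, TpnC4, Mhc, Mlc2, wupA, sls, Mf and salm summed to between 101390 and 104096 CPM in M1BP RNAi. In WT they summed to between 138530 and 153033 CPM. This sum shows muscle RNA in general, as Mhc and Mlc2 hold much of it. Act88F, the flight muscle actin gene, had 22509 to 24389 CPM in M1BP RNAi and 36891 to 39060 CPM in WT, so the labelled tissue was present in every library. Mitochondrial genome genes held 44.2% of the counts in WT replicate 2. They held 26.2% in WT replicate 1, 26.3% in WT replicate 3 and 15.1% to 23.4% in M1BP RNAi. On the second principal component, which held 24.5% of the variance, WT replicate 3 stood apart at 47.6. The other 5 libraries lay between -22.1 and 5.84. By the size of the loading on that axis, dy stood at rank 83, mey at 87, tyn at 170, nyo at 302, m at 408, neo at 579, qsm at 921, dyl at 1027, pio at 1119 and zye at 6416 of 8806 genes, with qsm and zye of opposite sign to the rest. This axis sets WT replicate 3 apart, and dy and mey were picked on that library. Their ranks thus follow from that choice, and all the ranks are a description. Because WT replicate 3 stood apart, the fold change of each member is given with and without it. Without it, M1BP RNAi cannot be told apart from the presence of the dosage compensation RNA lncRNA:roX1, described below.

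All 10 members passed the filter on low counts, in counts that ran from 35 (qsm in WT replicate 3) to 6885 (tyn in the same library). None was called higher or lower in M1BP RNAi at an adjusted p of 0.001 and a 1.5-fold change, where 2.2% of the 8806 genes tested were called higher and 2.88% lower. DESeq2 gave no adjusted p for dy and mey and called 0 of the other 8. In edgeR, 0 of the 8 members not picked on WT replicate 3 had an unadjusted p under 0.05. The median log2 fold change was -0.24 over the members and -0.091 over those 8, against -0.016 over all genes tested. The members also varied within WT. Together they summed to 206.5, 208.6 and 349.1 CPM in M1BP RNAi replicates 1, 2 and 3, against 143.1, 151.7 and 649.5 CPM in WT replicates 1, 2 and 3. A part of the sum in WT replicate 3 was fixed by the choice of dy and mey, which had 101 and 122 CPM there. Among the 8 members not picked on it, WT replicate 3 was the highest library in 6. A bulk library cannot tell fewer cells of a type from less RNA per cell, and this holds for every level below.

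Because dy and mey were picked for WT replicate 3, their wide spread within WT follows from that choice. The gene dy (dusky, FBgn0004511, X:11769769-11778784, minus strand, dm6), named for the small dark wings of its mutants, had 17.2, 18.4 and 28.7 CPM in M1BP RNAi, against 8.83, 13.1 and 101 CPM in WT. The 3 M1BP RNAi libraries lay above WT replicates 1 and 2 and far below WT replicate 3, which was 9.20-fold above the mean of the other WT libraries. The fitted log2 fold change of dy was -0.93 ± 0.88 (SE) over all libraries, and 1.03 ± 0.27 without WT replicate 3. The gene mey (morpheyus, FBgn0039851, 3R:31499235-31506992, plus strand), which helps to shape the embryonic denticles, had 28.9, 30.6 and 53.2 CPM in M1BP RNAi, against 15.5, 12.4 and 122 CPM in WT. As for dy, the M1BP RNAi libraries lay between WT replicates 1 and 2 and WT replicate 3, with WT replicate 3 at 8.78-fold the mean of WT replicates 1 and 2. Its log2 fold change was -0.42 ± 0.86 over all libraries and 1.47 ± 0.29 without WT replicate 3.

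**Figure D1:**
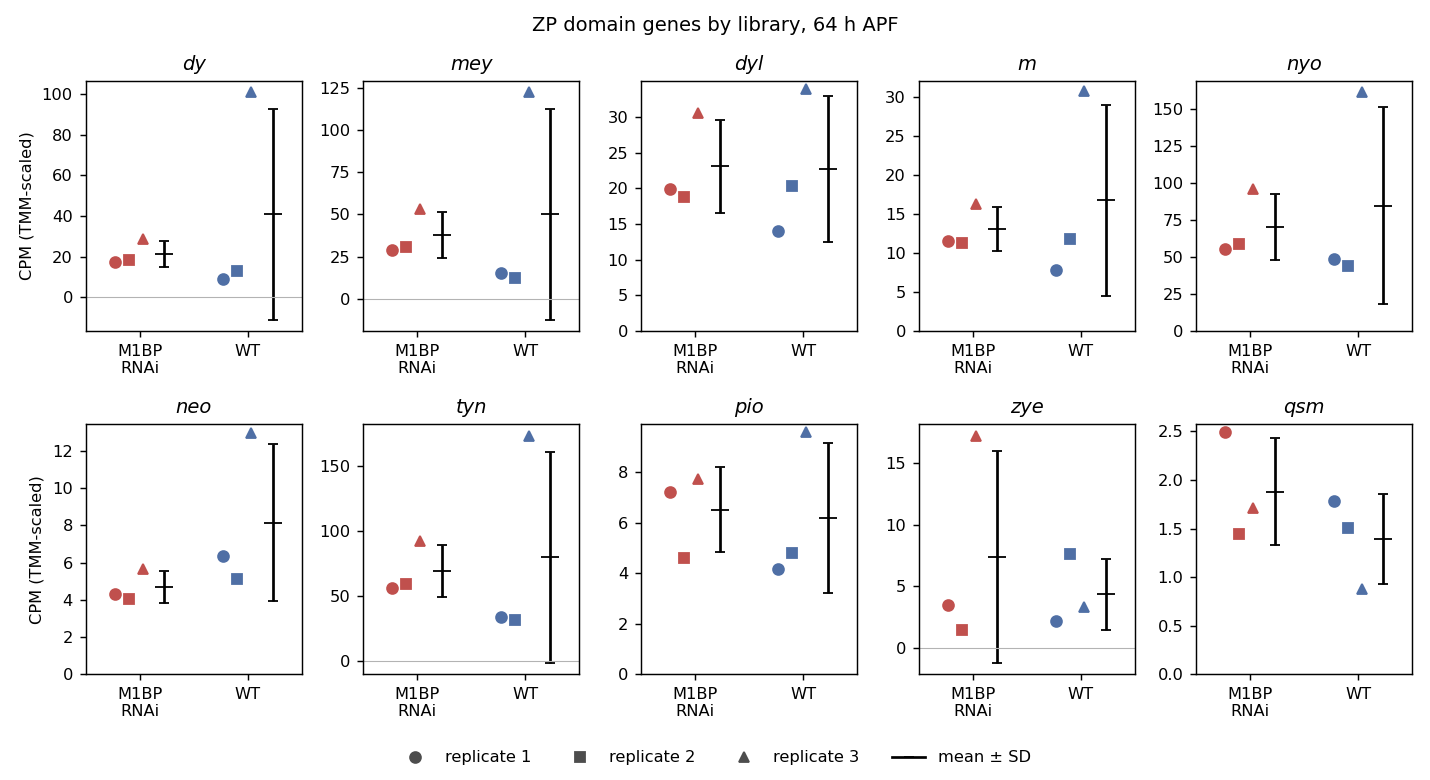
Level of each ZP domain gene in CPM (TMM-scaled, linear axis, a separate scale per gene) in the 3 M1BP RNAi libraries (left, red) and the 3 WT libraries (right, blue). Symbols mark the replicate number and bars the mean ± SD. The triangle of WT replicate 3 lies at 3.51-fold the next highest library in dy and at 2.30-fold in mey. It is at 2.04-fold in neo, 1.88-fold in m and tyn, 1.69-fold in nyo, 1.24-fold in pio and 1.11-fold in dyl. In zye the high library is M1BP RNAi replicate 3, at 17.3 CPM.

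The genes tyn and nyo were the most abundant members and had the same order of libraries as mey, although neither was picked for it. The gene tyn (trynity, FBgn0284435, X:142208-200663, plus strand) encodes a ZP protein of embryonic and larval cuticle. It had 55.7, 59.2 and 92.2 CPM in M1BP RNAi, against 33.9, 31.3 and 173 CPM in WT. Every M1BP RNAi library lay between the low WT pair and WT replicate 3, which was 5.32-fold above that pair. The log2 fold change of tyn was -0.20 ± 0.67 (SE, adjusted p = 0.852, edgeR) with all libraries and 1.13 ± 0.22 (adjusted p = 0.0106) without WT replicate 3, which misses the threshold of 0.001. Exons of tyn overlap CG17707 on the opposite strand, and the counting kept the strands apart. The gene nyo (nyobe, FBgn0039852, 3R:31543032-31566165, plus strand), another denticle gene, had 55.7, 58.9 and 95.7 CPM in M1BP RNAi, against 48.7, 43.7 and 162 CPM in WT. WT replicate 3 was 3.50-fold above the other WT libraries, and the log2 fold change was -0.27 ± 0.52 (adjusted p = 0.740) with it and 0.65 ± 0.24 (adjusted p = 0.0805) without it.

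Per exon length, nyo also led the members, at 18.4 RPKM (CPM per kilobase of exon) on average in M1BP RNAi and 22.2 RPKM in WT. It was followed by tyn, at 13.0 and 15.0 RPKM, and mey, at 11.1 and 14.8 RPKM, in M1BP RNAi and WT. In M1BP RNAi the per-library levels of nyo (14.6 to 25.1 RPKM), tyn (10.5 to 17.4 RPKM) and mey (8.55 to 15.7 RPKM) overlapped in range. Within each M1BP RNAi library the order was the same, with nyo at 1.38-fold to 1.44-fold the level of tyn and tyn at 1.11-fold to 1.24-fold the level of mey. In WT nyo was also first in every library, with 34.5%, 29.4% and 25.9% of the summed RPKM of the members in replicates 1, 2 and 3, and the second place went to tyn (17.2%), dyl (16.6%) and mey (22.1%) in those libraries.

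In m, dyl, pio and neo, WT replicate 3 was again the highest library, at a smaller ratio to the mean of WT replicates 1 and 2 than in the genes above. The gene m (miniature, FBgn0002577, X:11754273-11769508, plus strand) has a small-wing mutant phenotype like that of dy, and its 3′ end faces that of dy across 260 bases with no gene between. It had 11.5, 11.3 and 16.3 CPM in M1BP RNAi, against 7.82, 11.8 and 30.7 CPM in WT. WT replicate 2 fell among the M1BP RNAi libraries here, and WT replicate 3 was 3.13-fold above the mean of the other WT libraries. Its log2 fold change was -0.36 ± 0.48 (adjusted p = 0.624) with all libraries and 0.47 ± 0.23 (adjusted p = 0.157) without WT replicate 3. The gene dyl (dusky-like, FBgn0066365, 3L:4294004-4307718, minus strand) is needed for chitin deposition and the form of bristles and wing hairs. It had 19.9, 18.7 and 30.6 CPM in M1BP RNAi, against 14.0, 20.3 and 33.9 CPM in WT. The groups of dyl overlapped over nearly their whole range, and its log2 fold change was 0.02 ± 0.34 (adjusted p = 0.972) with all libraries and 0.48 ± 0.25 (adjusted p = 0.185) without WT replicate 3.

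The gene pio (piopio, FBgn0020521, 2R:24581245-24597862, plus strand), which ties the apical surface of epithelia to the overlying matrix in wing and trachea, had 7.21, 4.61 and 7.74 CPM in M1BP RNAi, against 4.16, 4.81 and 9.59 CPM in WT. M1BP RNAi replicate 2 lay with WT replicates 1 and 2, and the log2 fold change was 0.08 ± 0.35 (adjusted p = 0.899) with all libraries and 0.60 ± 0.23 (adjusted p = 0.0957) without WT replicate 3. The gene neo (neyo, FBgn0039704, 3R:29819131-29825800, plus strand), a further denticle gene, had 4.32, 4.05 and 5.64 CPM in M1BP RNAi, against 6.35, 5.12 and 13.0 CPM in WT. It was the member whose M1BP RNAi mean lay below the mean of WT replicates 1 and 2, at 0.814-fold. Its log2 fold change was -0.81 ± 0.35 (adjusted p = 0.133) with all libraries and -0.26 ± 0.18 (adjusted p = 0.319) without WT replicate 3.

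The remaining genes, zye and qsm, did not follow this order. The gene zye (FBgn0036985, 3L:20413604-20424309, plus strand) had 3.45, 1.40 and 17.3 CPM in M1BP RNAi, against 2.15, 7.62 and 3.27 CPM in WT. Its high library was M1BP RNAi replicate 3, 7.11-fold above the mean of the other M1BP RNAi libraries, and WT replicate 3 was at 0.669-fold the other WT libraries. The log2 fold change of zye was 0.78 ± 0.91 (adjusted p = 0.574) with all libraries, 0.68 ± 1.04 (adjusted p = 0.654) without WT replicate 3, and -0.82 when M1BP RNAi replicate 3 was left out instead. The gene qsm (quasimodo, FBgn0028622, 2R:20563034-20583591, minus strand), known for its part in the light response of the circadian clock, had 2.49, 1.44 and 1.71 CPM in M1BP RNAi, against 1.78, 1.51 and 0.881 CPM in WT. It was lowest in the library where dy and mey were highest, and its log2 fold change was 0.44 ± 0.32 (adjusted p = 0.363) with all libraries and 0.24 ± 0.28 (adjusted p = 0.552) without WT replicate 3.

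Counted over the list, WT replicate 3 was the highest of all 6 libraries in 8 members, or in 6 of the 8 that were not picked on it, against 20.8% of all genes tested. It was at least 2-fold above the mean of WT replicates 1 and 2 in 7 members, or 5 of the 8 not picked on it, where 3.03% of all genes were. The members nearest that limit were pio at 2.14-fold, inside it, and dyl at 1.98-fold, outside it. The median log2 ratio of WT replicate 3 to the other WT libraries was 1.41 over the members, 1.14 over the 8 not picked on it and -0.0091 over all genes. Within M1BP RNAi, replicate 3 was the highest library in 9 members (7 of the 8 not picked), against 36% of all genes, by 1.31-fold in pio to 1.79-fold in mey and 7.11-fold in zye. The exception was qsm, at 0.869-fold. In each of the 8 members that peaked in WT replicate 3, the margin of M1BP RNAi replicate 3 over its group was the smaller one.

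With all libraries, no member had its 3 M1BP RNAi values above all 3 WT values, as 21.5% of genes did. Without WT replicate 3 this held for 4 members, dy, mey, nyo and tyn (2 of the 8 not picked), against 28.8% of 9057 genes. The same fit called 0 members, where it called 2.72% of genes higher and 2.55% lower. At an adjusted p of 0.05 and with no fold minimum, 1 of the 8 members not picked, tyn, was higher in M1BP RNAi, where 18.5% of all genes were. Leaving the library out turned the sign of dy and mey and of 3 of the other 8 members, m, nyo and tyn. It left 7 of those 8 above 0, with a median log2 fold change of 0.54, against 0.031 over all genes. The WT libraries left in this fit had 0.0414 and 0.206 CPM of lncRNA:roX1, against 30.2 to 63.1 CPM in M1BP RNAi. This fit therefore cannot tell M1BP RNAi from the presence of that RNA.

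**Figure D2:**
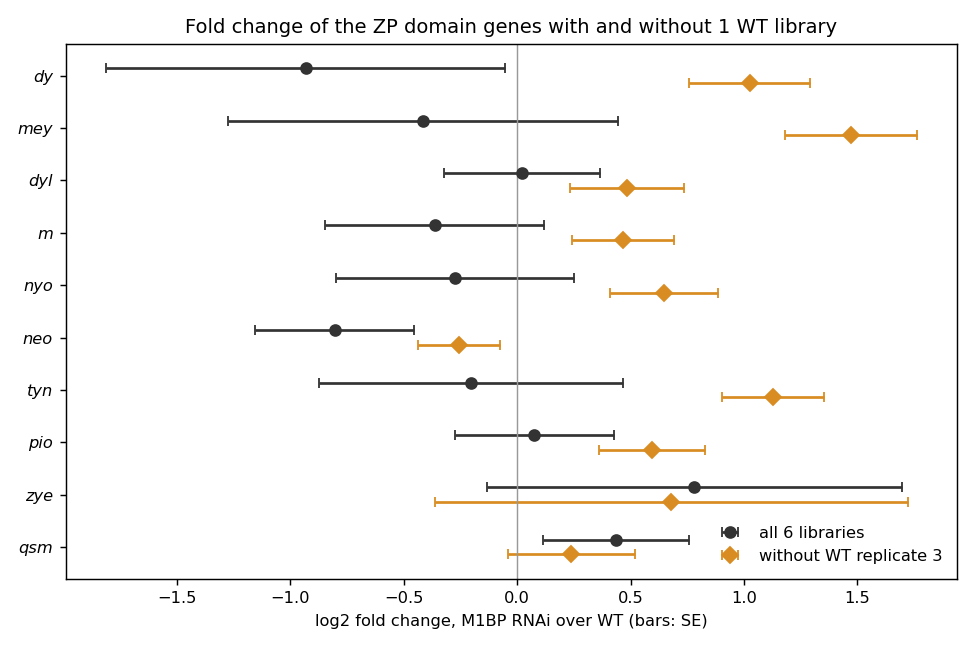
Log2 fold change of each ZP domain gene, M1BP RNAi over WT, with its SE, from edgeR with all 6 libraries (dark circles) and without WT replicate 3 (orange diamonds). For dy the value is -0.93 with all libraries and 1.03 without that library, and for tyn -0.20 and 1.13, while neo stays below 0 and zye and qsm above 0 in both.

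To see which members varied alike, each gene's log2(CPM + 0.5) was centred on its mean over the 6 libraries and genes were compared by the root mean square difference. This is a description over 6 libraries that share the same WT replicate 3. Both dy and mey were picked on that library, so their nearness to each other follows in part from that choice. Among the members the nearest pair was dyl and pio, at 0.20, and the farthest was mey and zye, at 1.44. Of 8805 genes, mey stood at rank 4 by nearness to dy, tyn at rank 7, nyo at rank 15 and m at rank 17, whereas qsm and zye stood at ranks 7933 and 8255. The neighbours of dy outside the list were CG11905 (0.27), CG16959 (0.29), the acyl-CoA oxidase gene Acox57D-d (0.30), the ecdysone-induced repressor gene Blimp-1 (0.34), the Toll ligand family gene spz6 (0.36), the odorant binding protein gene Obp56a (0.44), CG8927 (0.44) and Ect3 (0.44). The nearest gene to mey was CG8927, at 0.17, with 53.9, 50.4 and 85.3 CPM in M1BP RNAi, against 28.5, 20.4 and 157 CPM in WT. Blimp-1 (0.18), CG16959 (0.22), tyn (0.25) and dy (0.34) followed. Blimp-1 had 0.903, 1.40 and 2.02 CPM in M1BP RNAi, against 0.310, 0.275 and 4.86 CPM in WT, which puts WT replicate 3 16.6-fold above the other WT libraries. Its log2 fold change was -0.34 ± 1.03 (SE) with WT replicate 3 and 2.32 without it, and it was called in neither fit. The ratio rests on low values in WT replicates 1 and 2, where the floors were 0.0621 and 0.103 CPM. Because Blimp-1 was found by its likeness to dy and mey, these values are a description.

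The 2246 genes with at least 1000 counts in WT replicate 3 were also ranked by the ratio of that library to the highest of the other 5 (CPM + 1). Both the filter and the ratio use the library on which dy and mey were picked, so the ranks are a description. The members took ranks 1 (dy), 4 (mey), 7 (tyn), 10 (m), 14 (nyo) and 232 (dyl), while neo, pio, zye and qsm had fewer counts there and were not ranked. The other genes among the first 10 were Sodh-2, a sorbitol dehydrogenase gene, resilin, which encodes the elastic cuticle protein, Gld, a glucose dehydrogenase gene, rdo, the aldehyde oxidase gene AOX3, and CG8927. Of these, resilin had 7.72, 6.15 and 8.08 CPM in M1BP RNAi, against 5.65, 20.8 and 56.9 CPM in WT. Unlike the ZP genes, resilin was low in all M1BP RNAi libraries and intermediate in WT replicate 2.

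**Figure D3:**
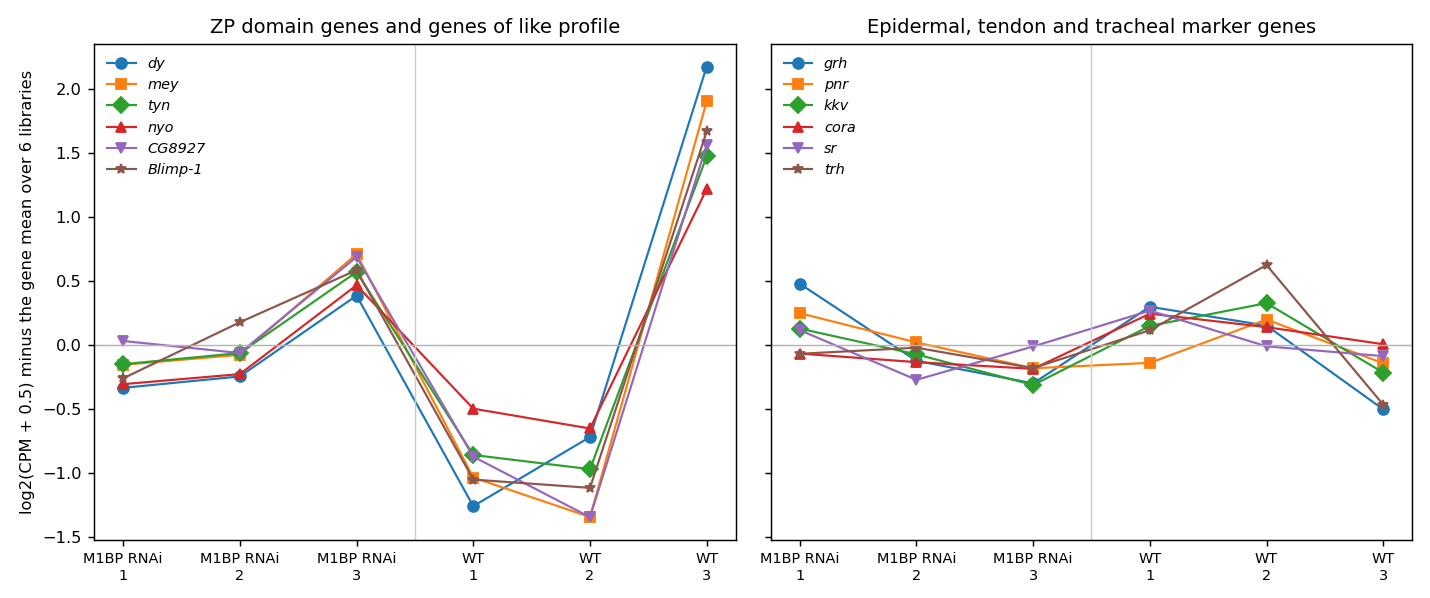
Centred log2(CPM + 0.5) per library, M1BP RNAi left and WT right of the grey line, for 4 ZP domain genes with CG8927 and Blimp-1 (left panel) and for the marker genes grh, pnr, kkv, cora, sr and trh (right panel). Lines join the points of a gene and carry no order of replicates. The genes of the left panel peak in WT replicate 3, where grh and trh of the right panel are at their lowest.

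The genes m and dy are convergent neighbours, and mey and nyo lie on 1 strand 36.0 kb apart with lncRNA:CR45573 between them, while the other 6 members lie apart from each other. No member shares exons with a gene on its own strand.

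Whether other RNA of epidermis or its matrix followed the ZP genes was read from marker lists. The share of all genes that lay below both other WT libraries in WT replicate 3 was not computed. Counts of such genes, here and below, therefore have no background and are a description. The median ratio of WT replicate 3 to the other WT libraries was 0.99-fold over all genes tested. The epidermal transcription factor genes grh, ovo, pnr, ara and caup summed to 8.44, 5.55 and 5.05 CPM in M1BP RNAi, against 7.28, 7.28 and 4.51 CPM in WT. WT replicate 3 thus had the lowest sum of all libraries, and 4 of the 5 genes were below both other WT libraries in it. The exception was ovo, whose product activates ZP genes in the embryo, at 0.325, 0.401 and 0.531 CPM in M1BP RNAi, against 0.310, 0.446 and 0.554 CPM in WT. The highest of the list, grh, had 6.16, 3.89 and 3.38 CPM in M1BP RNAi, against 5.38, 4.81 and 2.87 CPM in WT. The rest of the list was scarce, at 1.05 CPM or less in every library, so the count of genes below rests mainly on grh. For pnr the difference was slight, at 0.680 CPM in WT replicate 3 and 0.683 CPM in WT replicate 1.

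The epithelial junction genes summed to 375, 346 and 331 CPM in M1BP RNAi, against 410, 397 and 354 CPM in WT. In WT replicate 3, 9 of 11 lay below both other WT libraries, and the median ratio of the list was 0.88-fold. The exceptions were shg, the E-cadherin gene, at 1.54-fold, and crb, at 1.09-fold. The most abundant of them, cora, of the septate junction, had 234, 223 and 215 CPM in M1BP RNAi, against 291, 270 and 246 CPM in WT.

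Genes of chitin and the apical matrix summed to 985, 958 and 876 CPM in M1BP RNAi, against 902, 1179 and 903 CPM in WT, with a median WT replicate 3 to other WT ratio of 0.68-fold. In that library 9 of 16 were below both other WT libraries, among them kkv, the chitin synthase gene, at 0.726-fold and the most abundant gene, Cht7, at 0.436-fold. The 2-fold mark was reached by 3 genes: resilin at 4.29-fold, Gasp, which encodes a chitin-binding protein, at 4.16-fold, and the chitinase gene Cht5 at 2.88-fold. Gasp had 150, 147 and 223 CPM in M1BP RNAi, against 65.6, 63.7 and 269 CPM in WT, so that, as in mey and tyn, the M1BP RNAi libraries lay between WT replicates 1 and 2 and WT replicate 3. The log2 fold change of Gasp was 0.39 with that library and 1.47 without it, and it was called in neither fit. The cuticle protein genes (symbols starting with Cpr or Twdl) summed to 2695, 1261 and 1249 CPM in M1BP RNAi, against 1925, 1713 and 1004 CPM in WT. Of 96 such genes 38 were tested, and 31 of these lay below both other WT libraries in WT replicate 3, while Cpr51A (4.32-fold) and TwdlE (2.60-fold) were above 2-fold. The most abundant cuticle gene, Cpr30F, had 486, 256 and 154 CPM in M1BP RNAi, against 495, 307 and 202 CPM in WT.

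The other lists gave no sum that was highest in WT replicate 3. Pigment and sclerotisation genes summed to 56.8, 18.4 and 16.4 CPM in M1BP RNAi, against 38.2, 50.5 and 21.6 CPM in WT, led by b, which encodes aspartate decarboxylase. Trichome and wing hair genes summed to 19.97, 14.1 and 16.3 CPM in M1BP RNAi, against 22.2, 26.7 and 24.1 CPM in WT. In that list mwh, which restricts wing hair formation, had a log2 fold change of -1.12 ± 0.16 and an adjusted p of 0.0032 in edgeR, short of the threshold, and was called by DESeq2. Tendon genes summed to 22.5, 14.0 and 15.9 CPM in M1BP RNAi, against 18.1, 17.6 and 13.8 CPM in WT. Tracheal genes summed to 550, 565 and 510 CPM in M1BP RNAi, against 533, 584 and 555 CPM in WT. Of the tracheal genes, trh and btl were at 0.545-fold and 0.494-fold in WT replicate 3 and uif, which was also the most abundant, was at 1.08-fold.

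RNA of internal tissues was not high in WT replicate 3 either. Fat body genes summed to 288, 247 and 164 CPM in M1BP RNAi, against 108, 304 and 88.4 CPM in WT, and haemocyte genes to 46.9, 38.0 and 34.4 CPM in M1BP RNAi, against 22.2, 26.5 and 22.6 CPM in WT. Neuronal genes summed to 16.4, 12.7 and 12.2 CPM in M1BP RNAi, against 20.1, 18.6 and 13.8 CPM in WT. Myoblast genes summed to 47.8, 39.0 and 45.6 CPM in M1BP RNAi, against 39.3, 36.3 and 35.4 CPM in WT, and twi was at or near 0 throughout. Genes of other muscle types summed to 1856, 564 and 633 CPM in M1BP RNAi, against 1728, 1191 and 1145 CPM in WT. Of the genes of all lists edgeR called 1, Act88F, lower in M1BP RNAi. Its log2 fold change was -0.70 ± 0.07 (adjusted p = 7.59e-04, edgeR). Over all genes tested, edgeR called 2.2% higher and 2.88% lower. Act88F was no longer called when any 1 library was left out, with RLE scaling, with no filter on low counts or with the replicate number as a block. DESeq2 called 5, namely Act88F, mwh and b, lower in M1BP RNAi, and CG17111 and the haemocyte gene Pxn, higher. Over all genes it called 572 higher and 477 lower.

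**Figure D4:**
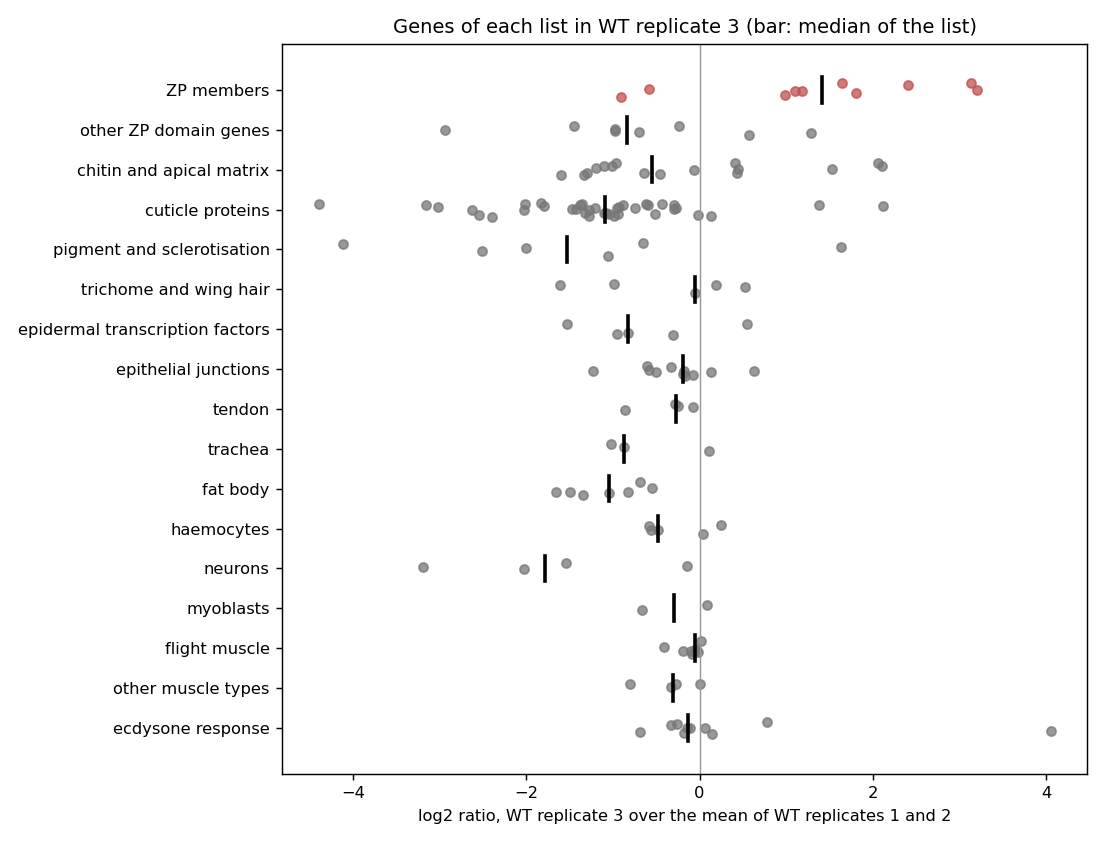
Log2 ratio of WT replicate 3 to the mean of WT replicates 1 and 2 (horizontal axis) for the tested genes of each list (rows); each point is a gene and the bar is the median of the list. The ZP members have a median of 1.41, and the medians of the other lists shown lie below 0; Blimp-1, the point of the ecdysone list furthest to the right, is at 16.6-fold.

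The ecdysone response genes, which time the moults and cuticle programmes, summed to 571, 621 and 529 CPM in M1BP RNAi, against 710, 670 and 648 CPM in WT, with a median WT replicate 3 ratio of 0.91-fold. The most abundant of them, Hr3, had 208, 192 and 188 CPM in M1BP RNAi, against 212, 172 and 201 CPM in WT. Besides Blimp-1, EcR stood out in this list with 1.72-fold in WT replicate 3. Neither edgeR nor DESeq2 called any gene of this list.

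Other ZP domain genes did not share the pattern as a group. In WT replicate 3, 5 of the 8 tested genes were below both other WT libraries and 2 above, and the list's median ratio was 0.56-fold. Several of these genes were too scarce for a firm order. In that library CG15020, CG17111 and nompA, counted as below, had 0.0503, 0.126 and 0.227 CPM, where the floor was 0.0755 CPM. CG16798, counted as above, had 0.453 CPM there and 0.446 CPM in WT replicate 2. The most abundant, dpy (dumpy), a giant matrix protein gene of tendons, trachea and wing, had 51.9, 67.4 and 30.5 CPM in M1BP RNAi, against 56.7, 83.3 and 25.6 CPM in WT, with replicate 3 the lowest library of each group. The gene pot (papillote), a partner of pio in the wing, had 19.9, 12.5 and 12.5 CPM in M1BP RNAi, against 18.6, 17.1 and 9.09 CPM in WT. CG12814 had 7.70, 4.63 and 7.27 CPM in M1BP RNAi, against 6.83, 4.16 and 13.3 CPM in WT, a 2.43-fold ratio of WT replicate 3 to the other WT libraries. The genes nompA, cyr, CG15020 and CG16798 were between 0.0503 and 1.37 CPM in every library, and CG10005 did not pass the filter. CG17111 had 1.07, 1.24 and 1.24 CPM in M1BP RNAi, against 0.290, 0.206 and 0.126 CPM in WT, with groups that did not overlap. Its log2 fold change of 2.48 ± 0.33 had an adjusted p of 0.0021 in edgeR, short of the threshold, and the gene was called higher by DESeq2 (adjusted p = 5.03e-06).

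The libraries also differed in RNA that marks male cells. The dosage compensation RNA lncRNA:roX1 had 30.7, 30.2 and 63.1 CPM in M1BP RNAi, against 0.0414, 0.206 and 22.3 CPM in WT, and lncRNA:roX2 had 2.42, 3.87 and 5.80 CPM in M1BP RNAi, against 0, 0 and 4.81 CPM in WT. The protein gene msl-2 had 6.36, 6.75 and 10.5 CPM in M1BP RNAi, against 5.90, 6.01 and 11.6 CPM in WT. It did not follow roX1, as M1BP RNAi replicates 1 and 2 lay near WT replicates 1 and 2. WT replicates 1 and 2, where dy, mey, tyn and nyo were lowest, were the libraries with the least roX1, and the part of the sex of the pooled pupae in the ZP levels was not tested. Without WT replicate 3, lncRNA:roX1 was called higher in M1BP RNAi (log2 fold change 8.63, adjusted p = 3.30e-04, edgeR). It was the 1 gene of the lists called in that fit, which called 2.72% of all genes tested higher and 2.55% lower. In the libraries of that fit, M1BP RNAi and the presence of roX1 separate the libraries in the same way and cannot be told apart.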

How the data were processed

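The authors deposited a table of raw counts of uniquely mapped reads per gene on dm6, 1 column per library, with exon coordinates and summed exon length. Per the labels, bcl2fastq 2.17.1.14 and featureCounts of Subread 2.0.3 were used. The labels and the study's methods name different stranded mRNA library kits. A second deposited table holds gene symbols, used here, and the authors' own DESeq2 fold changes and p-values, which were not used. Of the 17494 genes, 17358 were in the reference annotation, 17218 with the same start and end. The 1 line that names no gene held 0 counts. In 35 genes lying inside exons of an opposite-strand gene, the median read density was 0.518% of the outer gene's, which shows stranded counting. No 2 libraries of a group were alike within sampling noise (chi-square over its degrees of freedom, 46.5 to 448). Within WT this value was 67.2 for replicates 1 and 3, and 442 and 448 for the pairs with replicate 2.

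Genes were tested with edgeR 4.0.16 in R 4.3.3 (quasi-likelihood, TMM scaling, edgeR's filter on low counts, Benjamini-Hochberg adjustment over all genes tested), and called at an adjusted p of 0.001 or less and a 1.5-fold change, the thresholds of the study's methods. The alternatives were DESeq2 1.42.0, RLE scaling, other filters, a looser threshold, omission of mitochondrial genome genes, the replicate number as a block and each library left out. On counts simulated for this comparison over 8806 genes, the test called 61 of 100 genes changed 4-fold and 4 of 100 changed 2-fold, of which 0 had the wrong sign, and 1 gene with no change.

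The members, marker lists and tests were chosen with earlier results of these data known. The text names M1BP, the members, the other ZP domain genes, the most abundant, called or WT replicate 3-high genes of each list, the 10 genes highest in WT replicate 3 against the other libraries, and the 10 and 5 genes of profile nearest to dy and mey. Further marker genes (shg, crb, kkv, Gasp, Cht5, Cpr51A, TwdlE, ovo, trh, btl, twi, EcR, msl-2 and lncRNA:roX2) were chosen after their values were seen. Promoter motifs and protein sequences of the members were not analysed here.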

Additional observations from a re-analysis of the deposited data

How the results depend on the processing

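Of the members, 0 were called higher and 0 lower with DESeq2 (which gave no adjusted p for dy and mey), RLE scaling, either other filter, without mitochondrial genome genes, with the replicate number as a block, at the looser threshold of 0.05, and without any single library. Over all genes, 194 were called higher and 254 lower, against 572 and 477 with DESeq2, 1212 and 1489 at the looser threshold (0.05, any fold), and 26 to 246 higher and 44 to 231 lower with 1 library left out. The highest of these were without WT replicate 3 and the lowest without M1BP RNAi replicate 2. Without WT replicate 1 they were 31 and 65, without WT replicate 2 58 and 106, and without M1BP RNAi replicates 1 and 3 41 and 76, and 30 and 58. The log2 fold changes of dy and mey moved to 1.03 and 1.47 without WT replicate 3, and ranged from -1.41 to 1.03 and from -0.87 to 1.47 over the libraries left out. Another scaling moved the WT replicate 3 ratio of a member by at most 0.35 on the log2 scale. The cause was not tested for any of these.

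With the replicate number as a block, 75 genes were called higher and 116 lower. The deviations of same-numbered libraries correlated at 0.31, -0.044 and 0.27, and 2 of the 3 M1BP RNAi libraries correlated best with their own number. With 3 libraries per group these values cannot decide whether the numbers pair the samples. The block gave 2 members, mey and tyn, the other sign, at log2 fold changes of 0.33 ± 0.51 and 0.25 ± 0.37, and neo had -0.71 ± 0.19 with an adjusted p of 0.041 (edgeR), short of the threshold of 0.001. The lowest member counts were 35 to 138 for qsm and 70 to 878 for zye.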
